A study of Mus musculus with 15 samples.

Results

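The miR-29 family was followed as 5 mature miRNAs in small RNA libraries of mouse pancreatic acini, the enzyme-secreting units of the exocrine pancreas. The members were taken by name from a table of 1915 mature miRNAs: mmu-miR-29a-3p, mmu-miR-29b-3p, mmu-miR-29c-3p, mmu-miR-29a-5p and mmu-miR-29b-2-5p, written below without the mouse prefix. The remaining arms of the same hairpins, miR-29c-5p and miR-29b-1-5p, were examined beside them. The 15 libraries formed 5 groups of 3, all from the pancreas of C57BL/6 mice aged 7 to 8 weeks: an untreated control, caerulein at 100 pM, caerulein at 100 nM, and TLC-S (taurolithocholic acid 3-sulfate) at 62.5 uM or 250 uM. Caerulein, a peptide, activates the cholecystokinin receptor of acinar cells. The design text calls its lower dose physiological and its higher dose pathological. TLC-S, a sulfated bile acid, is applied in models of acinar injury. No genotype other than the strain is named for any group. Per the extract protocol, RNA of 3 independent acinar preparations was pooled, and no label ties a library to a preparation. The p-values below therefore measure how far these libraries spread, and that spread may be technical.

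A miRNA hairpin gives rise to a 5p and a 3p arm, and in this family the 3p arm is the main guide that loads into Argonaute, while the 5p arm is mostly degraded. The seed, bases 2 to 8, sets most target pairing, and the miR-29 guides are known for repressing collagens and other genes of the extracellular matrix. Their level falls in fibrosis of several organs, and the stellate cells of the pancreas are the usual source of such matrix.

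The mature sequences show which members can share targets and why reads of near-identical arms have to be separated by few bases. They are given 5′ to 3′ from RefSeq (GRCm38.p6), with the seed in capitals, and all 7 names matched.
miR-29a-3p: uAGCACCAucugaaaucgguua
miR-29c-3p: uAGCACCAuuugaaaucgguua
miR-29b-3p: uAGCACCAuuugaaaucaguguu
miR-29a-5p: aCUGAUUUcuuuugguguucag
miR-29b-2-5p: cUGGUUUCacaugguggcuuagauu
miR-29c-5p: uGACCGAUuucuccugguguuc
miR-29b-1-5p: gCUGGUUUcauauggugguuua

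The 3 guides had the same seed, AGCACCA, which no other of the 1679 mouse mature names in the RefSeq table held. Counted from 1 at the 5′ end, miR-29a-3p and miR-29c-3p differed by 1 base, C10U. From miR-29c-3p to miR-29b-3p the changes were G18A, U21G and A22U, all outside the seed, and miR-29b-3p was 1 base longer, at 23 bases against 22. The 5p arms had no seed in common with the guides or with each other. The seed of miR-29b-2-5p was also that of miR-6338.

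The hairpins lie in a pair of clusters. Mir29a is on the minus strand at chr6:31062660-31062747, and Mir29b-1 at chr6:31063023-31063093, with 275 bases between them. GENCODE M21 places neither within a gene, except that 2 bases of Mir29b-1 overlap an exon of the long noncoding RNA gene Gm27019. Mir29b-2 is on the plus strand at chr1:195037040-195037120 and Mir29c at chr1:195037547-195037634, with 426 bases between them. Both lie within an exon of the noncoding transcript A330023F24Rik and opposite an exon of Cd46. The mature miR-29b-3p is identical in both clusters, at chr1:195037091-195037113 and chr6:31063025-31063047. In the deposited table of counts per precursor its rows for the 2 hairpins were equal in 9 of 15 libraries and differed by at most 0.345% of their sum, so the hairpin of origin cannot be told apart.

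The shallowest and the deepest library both belonged to caerulein 100 nM, with 535473 counts (replicate 2) and 5087728 counts (replicate 3). Counts were present for 867 of the 1915 mature miRNAs, and 351 remained after the filter on low counts, among them all 5 members. The acinar marker miRNAs (miR-148a, miR-216a, miR-216b and miR-217, both arms) held 27.2% to 58.2% of the counts of a library, and both the lowest and the highest share were in control libraries. Islet markers held 5.82% to 14.8%, stellate and mesenchymal markers 0.896% to 2.02%, endothelial markers 0.363% to 0.839%, erythrocyte markers 0.00657% to 0.0187% and leukocyte markers 0.00355% to 0.0111%. No marker of these 6 lists was at 0 in all libraries. The part of the other cell types in the levels below was not tested, and in bulk RNA fewer cells of a type and less RNA per cell cannot be told apart.

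The family held 0.590% to 1.31% of all counts. Levels are given in CPM, here counts scaled by TMM to a common library total, which also adjusts each library's total for its composition. miR-29a-3p was the most abundant member, at rank 22 of 1915, followed by miR-29c-3p at rank 54 and miR-29b-3p at rank 76. Ranks are by the mean over libraries of counts scaled by library totals, without TMM. The 5p arms were scarcer, with miR-29c-5p at rank 132, miR-29b-2-5p at 284, miR-29a-5p at 293 and miR-29b-1-5p at 400. Among the 3 guides, miR-29a-3p made up 84.1% ± 2.60 of the counts (SD, n = 15), miR-29c-3p 10.4% ± 1.76 and miR-29b-3p 5.47% ± 1.45. The lowest share of miR-29a-3p in any library was 77.3%.

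miR-29a-3p, the main guide of the chromosome 6 cluster, was at 8516, 7338 and 8249 CPM in the control libraries (8034 ± 618, SD, n = 3). It was at 9252, 6495 and 7546 CPM with caerulein at 100 pM and at 9280, 7676 and 7724 CPM with caerulein at 100 nM. At 100 pM 1 library lay above and 1 below the control range, and at 100 nM 1 library lay above it and the others within it. With TLC-S at 62.5 uM the libraries were at 8719, 9656 and 8371 CPM, and at 250 uM at 10225, 8072 and 7327 CPM. All 4 treated groups overlapped control. The highest group mean was 1.15 times the lowest, the narrowest range among the 5 members.

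Against control, miR-29a-3p differed by 0.03 (log2, SE 0.21) with caerulein at 100 nM, with a 95% interval from -0.41 to 0.48. For caerulein at 100 pM the interval ran from -0.49 to 0.39, for TLC-S at 62.5 uM from -0.29 to 0.59 and for TLC-S at 250 uM from -0.35 to 0.53. A doubling or a halving of this guide lies outside each of these intervals.

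miR-29c-3p, the guide that differs from miR-29a-3p by C10U, was at 1112, 958 and 765 CPM in control (945 ± 174, SD, n = 3). With caerulein at 100 nM it was at 1597, 1034 and 1112 CPM, and with caerulein at 100 pM at 1205, 865 and 795 CPM. Replicate 1 of caerulein 100 nM was the highest of all 15 libraries, and the other libraries of that group lay within the control range. With TLC-S the values were 749, 968 and 1154 CPM at 62.5 uM and 1156, 1287 and 748 CPM at 250 uM, which spanned the control values at both doses. For caerulein at 100 nM the difference from control was 0.40 (log2, SE 0.27), with an interval from -0.15 to 0.95 and an adjusted p of 0.984 (edgeR). The remaining intervals against control lay between -0.53 and 0.72.

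miR-29b-3p, the guide with an altered 3′ end that both clusters encode, was at 742, 512 and 436 CPM in control (563 ± 159, SD, n = 3). With caerulein it was at 689, 311 and 408 CPM at 100 pM and at 1127, 485 and 418 CPM at 100 nM. With TLC-S it was at 632, 562 and 378 CPM at 62.5 uM and at 695, 553 and 327 CPM at 250 uM. In every group replicate 1 was the highest library, and the groups overlapped throughout. The log2 difference from control was 0.27 (SE 0.36) for caerulein at 100 nM, -0.26 (SE 0.36) for caerulein at 100 pM, and -0.10 (SE 0.36) for both doses of TLC-S. The interval for caerulein at 100 nM ran from -0.47 to 1.00, so a doubling lay at its upper end.

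**Figure D1:**
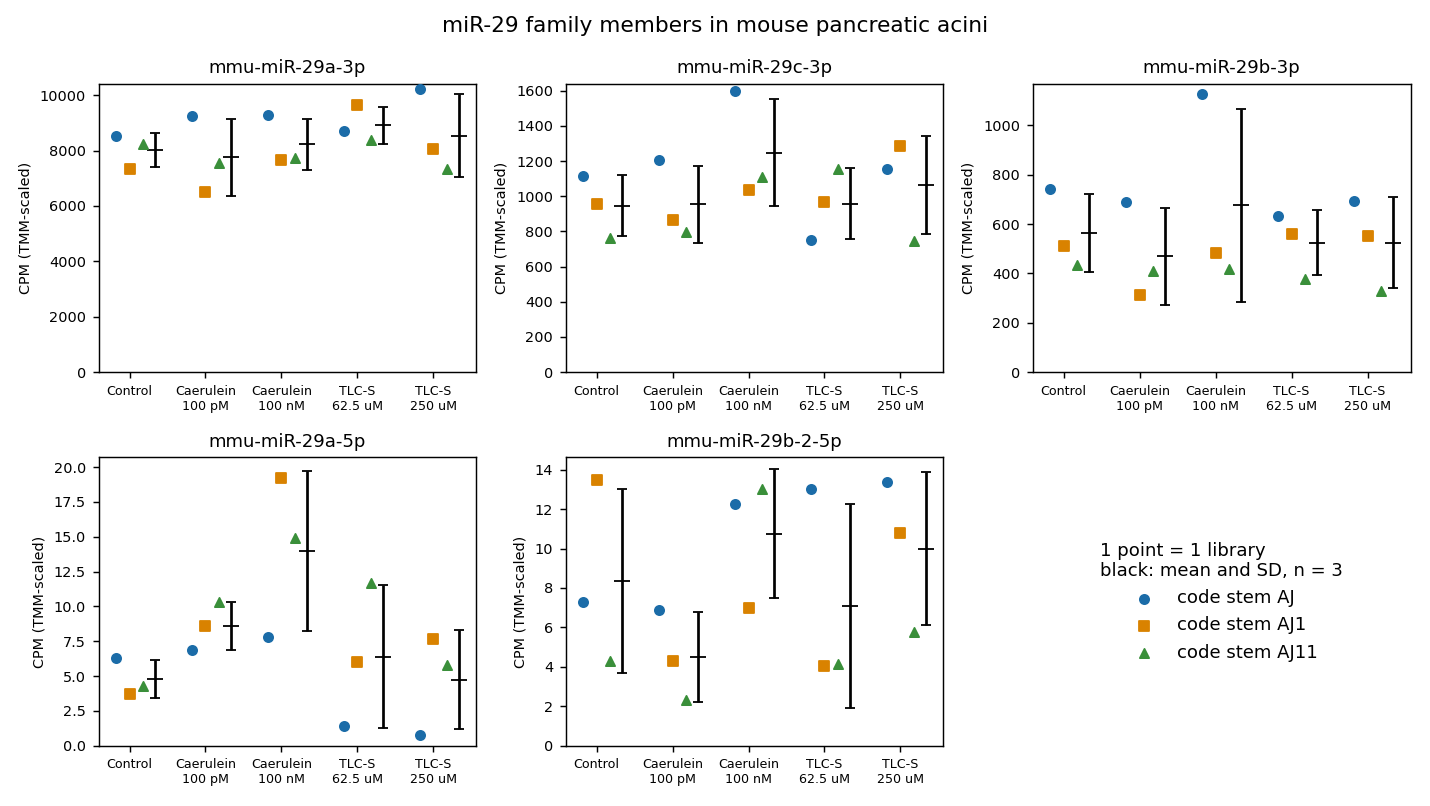
TMM-scaled CPM (vertical axes, linear, from 0) of the 5 members in each of the 15 libraries, by group, with the mean and SD of each group (n = 3) in black and the marker showing the code stem of the library. The 5 libraries of stem AJ hold the 5 highest values of miR-29b-3p, from 632 to 1127 CPM, while the groups overlap, and miR-29a-5p is above the control values in all 6 caerulein libraries on this scale, though not at 100 pM when scaled by library totals.

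In each group the highest library of miR-29b-3p had a title code of the same series. Each title carries a code from 1 of 3 series, with the stem AJ, AJ1 or AJ11, and each series holds 1 library of every group. The labels do not say what the series stand for. The 5 libraries of stem AJ, replicate 1 of each group, were at 632 to 1127 CPM (777 ± 199.4, SD, n = 5). Those of stem AJ1 were at 311 to 562 CPM (485 ± 102), and those of stem AJ11 at 327 to 436 CPM (393 ± 42.6). Every library of stem AJ was thus above all 10 others, and the share of miRNAs with that order was not counted. For AJ11 against AJ alone, AJ11 lay below without overlap for 3.70% of the 351 miRNAs, with miR-29b-3p and miR-29a-3p among them. In a model with the stem as a term, chosen after these values were seen, edgeR called 6.55% of miRNAs for the stem (20.5% at an unadjusted p under 0.05). Among them was 1 of the 5 members, miR-29b-3p. That call was lost without replicate 1 of caerulein 100 pM (adjusted p = 0.0514, edgeR, with 1 miRNA called in place of 23) and without replicate 1 of caerulein 100 nM (adjusted p = 0.0740, edgeR, with 8 called), and over all left-out libraries the calls ran from 1 to 54. miR-29a-3p was at 8516 to 10225 CPM in AJ, 6495 to 9656 CPM in AJ1 and 7327 to 8371 CPM in AJ11. AJ11 thus lay below AJ without overlap on this scale, and AJ1 overlapped both. Scaled by library totals in place of TMM, AJ11 overlapped AJ, with TLC-S 62.5 uM at 9575 CPM in AJ11 and 9076 CPM in AJ. The TMM-scaled means were 9198, 7847 and 7844 CPM for AJ, AJ1 and AJ11, and the stem term had an adjusted p of 0.503 (edgeR). For miR-29c-3p the stems overlapped, with means of 1164, 1022 and 915 CPM.

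The ratio of 2 guides within a library does not depend on the scaling between libraries. miR-29b-3p had 87.1, 69.8 and 52.8 counts per 1000 of miR-29a-3p in the control libraries. With caerulein the ratio was 74.5, 47.9 and 54.1 at 100 pM and 121, 63.1 and 54.2 at 100 nM, and with TLC-S 72.5, 58.2 and 45.1 at 62.5 uM and 67.9, 68.5 and 44.7 at 250 uM. Each treated group overlapped control. By code stem it was 84.7 ± 21.7 for AJ, 61.5 ± 8.92 for AJ1 and 50.2 ± 4.85 for AJ11 (SD, n = 5 each), and the AJ libraries lay above all AJ11 libraries but overlapped AJ1. miR-29c-3p had 118 ± 21.9 counts per 1000 of miR-29a-3p in control and 150 ± 19.5 with caerulein at 100 nM (SD, n = 3), where each library was above each control library, from 135 to 172 against 92.7 to 131. This separation was seen in the values and not tested. How often ratios of other miRNAs separate these groups was not counted, so it has no background to be read against. The other treated groups, with means of 108 to 125, overlapped control.

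**Figure D2:**
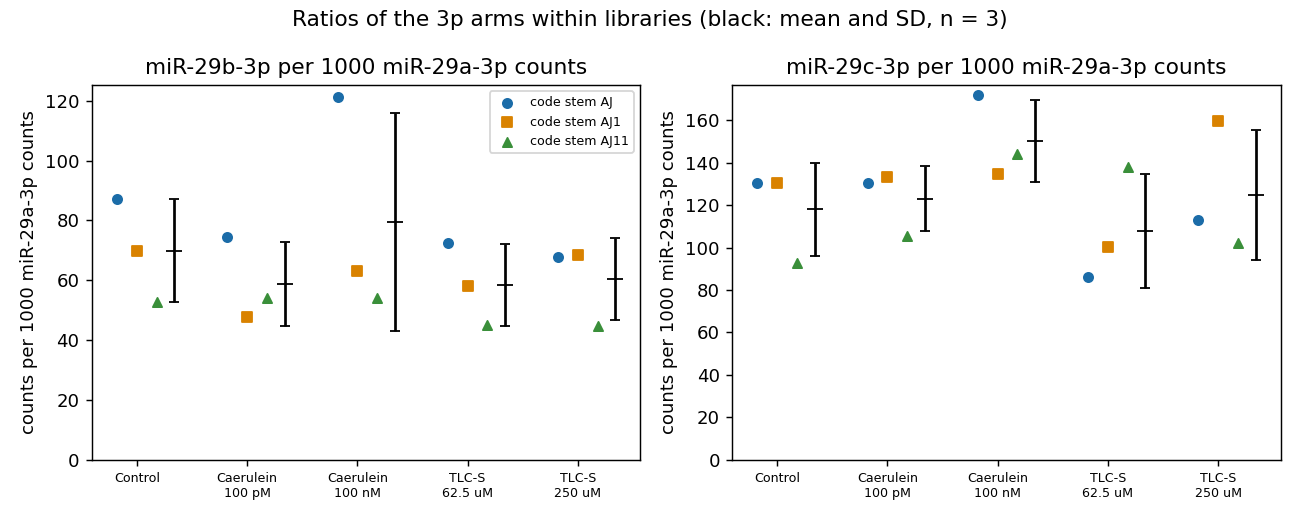
Counts of miR-29b-3p (left) and miR-29c-3p (right) per 1000 counts of miR-29a-3p (vertical axes, linear, from 0) in each library by group, with the group mean and SD (n = 3) in black and the marker showing the code stem. The stem AJ11 lies between 44.7 and 54.2 for miR-29b-3p and the stem AJ between 67.9 and 121, whereas the stems mix for miR-29c-3p.

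miR-29a-5p, the scarce partner strand of miR-29a-3p, rested on few reads. Its raw counts were 13, 10 and 9 in control, 12, 14 and 9 with caerulein at 100 pM, and 16, 11 and 79 with caerulein at 100 nM. At the depths of these libraries they were 6.30, 3.74 and 4.30 CPM in control, 6.89, 8.62 and 10.3 CPM at 100 pM and 7.84, 19.2 and 14.9 CPM at 100 nM. All 6 caerulein libraries lay above all 3 control libraries, by a narrow margin in replicate 1 of each dose. Scaled by library totals in place of TMM, replicates 1 and 2 of caerulein 100 pM were at 6.89 and 6.62 CPM, below the highest control at 7.04, so that the lower dose overlapped control on that scale. With TLC-S the counts were 3, 15 and 17 at 62.5 uM (1.45, 6.03 and 11.7 CPM) and 1, 12 and 16 at 250 uM (0.787, 7.63 and 5.79 CPM), on both sides of the control values.

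The log2 difference of miR-29a-5p between caerulein 100 nM and control was 1.49 (SE 0.64), with a 95% interval from 0.18 to 2.80. It missed the threshold over the whole table (unadjusted p = 0.0274, adjusted p = 0.984, edgeR). Between caerulein 100 pM and the same control libraries it was 0.83 (SE 0.66), with an interval from -0.53 to 2.18 and an adjusted p of 0.942 (edgeR). The groups did not overlap in these comparisons, as was so, in the same direction, for 2.56% of the miRNAs tested at 100 nM and 5.41% at 100 pM. Between the caerulein doses the difference was 0.66 (SE 0.63), and those groups overlapped. With limma on log2(RPM + 10), a scale that understates differences of scarce miRNAs, the differences from control were 0.71 at 100 nM and 0.22 at 100 pM. For TLC-S it was 0.37 (SE 0.66) at 62.5 uM and 0.06 (SE 0.66) at 250 uM.

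Since the 2 arms come from 1 hairpin, their ratio was also taken within each library, on a log2 scale, 3p count to 5p count, each with 0.5 added. For miR-29a it was 10.68 ± 0.29 in control (SD, n = 3), about 1641 guide reads per 5p read as a geometric mean. With caerulein it was 9.76 ± 0.50 at 100 pM and 9.25 ± 0.82 at 100 nM, or 866 and 609 guide reads per 5p read. The 6 caerulein libraries, from 8.58 to 10.33, all lay below the control libraries, from 10.35 to 10.87, and the nearest pair were almost level. The differences from control were -0.92 and -1.43, each with an exact two-sided permutation p of 0.1 (adjusted p = 0.2 over 4 comparisons), which is the smallest that 3 against 3 libraries allow. Both share the control libraries. The ratio uses the same miR-29a-5p counts as the differences given above, so it is not independent of them. Arm ratios of hairpins outside the family were not taken, so no share with such a separation can be given.

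With TLC-S the miR-29a arm ratio was 10.79 ± 1.46 at 62.5 uM and 11.11 ± 1.71 at 250 uM, with exact permutation p-values of 0.9 and 1. The highest values, 12.33 and 13.08, came from replicate 1 of each dose, with 3 and 1 reads of the 5p arm. The 5p arm made up 0.0166% of both arms there at 62.5 uM (exact Clopper-Pearson 95% interval 0.00343% to 0.0485%) and 0.00770% at 250 uM (0.000195% to 0.0429%). In the control libraries the share was 0.0509% to 0.0739%. The reads carry no molecular tags, so these intervals cover counting error alone. Without replicate 1 of its treated group the difference from control changed from 0.11 to -0.66 at 62.5 uM and from 0.43 to -0.56 at 250 uM.

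**Figure D3:**
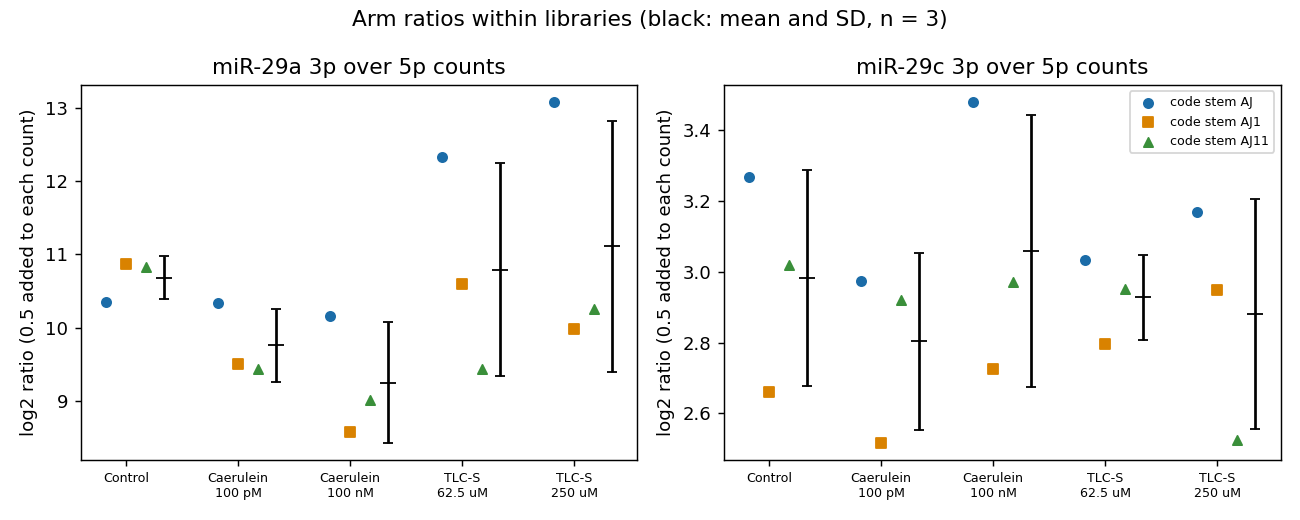
log2 ratio of 3p over 5p counts (vertical axes, log2 scale, 0.5 added to each count) of miR-29a (left) and miR-29c (right) in each library, by group, with the mean and SD (n = 3) in black and the marker showing the code stem. For miR-29a the 6 caerulein libraries lie between 8.58 and 10.33, below the 3 control libraries, while the TLC-S libraries range from 9.44 to 13.08, and for miR-29c every group overlaps control.

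For miR-29c the arms were far closer in level, with group geometric means of 6.98 to 8.33 guide reads per 5p read against 609 to 2209 for miR-29a. The log2 ratio of miR-29c was 2.98 ± 0.30 in control (SD, n = 3), 2.80 ± 0.25 with caerulein at 100 pM and 3.06 ± 0.38 at 100 nM. With TLC-S it was 2.93 ± 0.12 at 62.5 uM and 2.88 ± 0.33 at 250 uM, and all groups overlapped control. miR-29c-5p itself was at 94.1 to 151 CPM in control and 91.3 to 167 CPM over the treated libraries. Its largest log2 difference from control was 0.28 (SE 0.27), with caerulein at 100 nM.

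miR-29b-2-5p, the partner strand of miR-29b-3p from the chromosome 1 hairpin, had raw counts of 2 to 69. It was at 7.27, 13.5 and 4.30 CPM in control, 6.89, 4.31 and 2.30 CPM with caerulein at 100 pM and 12.2, 7.00 and 13.0 CPM at 100 nM. The libraries of the higher caerulein dose all lay above those of the lower dose, with a log2 difference of 1.25 (SE 0.62), an interval from -0.02 to 2.52 and an adjusted p of 0.986 (edgeR). The higher dose lay above the lower without overlap for 2.28% of the miRNAs tested. With limma on log2(RPM + 10) the difference was 0.59. Both doses overlapped control. With TLC-S it was at 13.0, 4.02 and 4.13 CPM at 62.5 uM and 13.4, 10.8 and 5.79 CPM at 250 uM, again across the control values.

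miR-29b-1-5p, the partner strand from the chromosome 6 hairpin, had 1 to 11 counts in each library and did not pass the filter on low counts, so no difference was estimated for it. Its highest count was in the deepest library.

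In the comparison of caerulein 100 nM with control, 0 of 5 members passed at an adjusted p under 0.05 in edgeR, where 0% of the 351 miRNAs did. At an unadjusted p under 0.05 the count was 1 member, miR-29a-5p, where 3.42% of miRNAs were. DESeq2 called 0 members and 1 miRNA in all. All 5 log2 differences were above 0, with a median of 0.40, where 185 of 351 miRNAs were above 0 and the median was 0.03. The median is the value of miR-29c-3p, which was 0.20 without replicate 1 of caerulein 100 nM, where miR-29b-3p turned to -0.30.

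With caerulein at 100 pM, 0 of 5 members passed against a background of 0%, and 0 had an unadjusted p under 0.05 against 6.84%. DESeq2 called 0 members and 0 miRNAs. There 2 of 5 differences were above 0, with a median of -0.05, where 180 of 351 were above 0 and the median was 0.01. Between the caerulein doses all 5 differences were above 0, with a median of 0.53, where 170 of 351 miRNAs were above 0 and the median was -0.02. In that comparison 0 members passed (background 0%), 0 had an unadjusted p under 0.05 (background 1.71%), and DESeq2 called 0 members and 0 miRNAs. The median of 0.53 is the value of miR-29b-3p, which ran from 0.0044 without replicate 1 of caerulein 100 nM to 0.91 without replicate 1 of caerulein 100 pM. These comparisons share libraries, so their medians are not independent.

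With TLC-S at 62.5 uM, 0 of 5 members passed in edgeR, where 0.570% of miRNAs did, and 0 members had an unadjusted p under 0.05, where 7.41% did. At 250 uM, 0 members passed (background 0%), and 0 had an unadjusted p under 0.05 (background 1.14%). The median differences of the members were 0.02 and 0.09, where those of all miRNAs were -0.01 and -0.03. Between the TLC-S doses 0 members passed (background 1.14%) and 0 had an unadjusted p under 0.05 (background 8.83%). The F test over the 5 groups called 0 members, where 0.855% of miRNAs passed, and 0 members at an unadjusted p under 0.05, where 7.41% did. DESeq2 called 0 members in each of these tests, and over all miRNAs it called 4 for TLC-S at 62.5 uM, 0 at 250 uM, 4 between the doses and 7 in the F test.

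**Figure D4:**
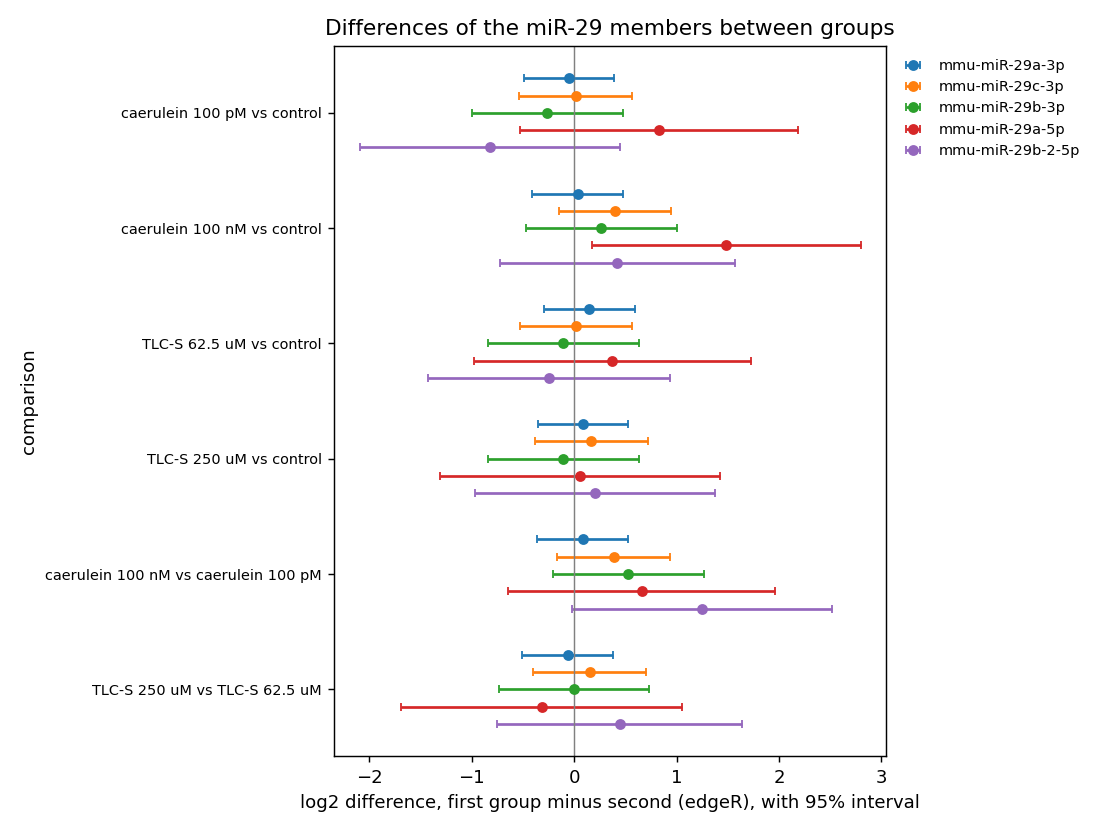
log2 difference between groups (horizontal axis) of the 5 members in the 6 comparisons of group pairs (vertical axis), from edgeR, with points for estimates and bars for 95% intervals. The interval of miR-29a-5p for caerulein 100 nM against control, from 0.18 to 2.80, is the only one of the 30 that lies on 1 side of 0, and the bars of miR-29a-3p are the shortest.

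By order of group means, miR-29a-3p ran from caerulein 100 pM (7765 CPM) through control, caerulein 100 nM and TLC-S 250 uM to TLC-S 62.5 uM (8916 CPM). For both of the other guides caerulein 100 nM had the highest mean, 1248 CPM for miR-29c-3p and 677 CPM for miR-29b-3p. The lowest were control for miR-29c-3p, at 945 CPM, and caerulein 100 pM for miR-29b-3p, at 469 CPM. The highest mean was 1.32 times the lowest for miR-29c-3p, 1.44 times for miR-29b-3p, 2.39 times for miR-29b-2-5p and 2.95 times for miR-29a-5p. In none of these 5 orders did neighbouring groups differ by more than the larger of their SDs.

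Across the 15 libraries, log2 CPM of miR-29a-3p and miR-29b-3p had a Pearson r of 0.745 (permutation p = 0.00136, adjusted p = 0.0136 over 10 pairs of members) and a Spearman rho of 0.796 (adjusted permutation p = 0.0073). Without the 2 libraries farthest from the median of miR-29a-3p, r was 0.683. miR-29b-3p and miR-29c-3p had an r of 0.644 (adjusted permutation p = 0.0457) and a rho of 0.564 (adjusted permutation p = 0.151), and r fell to 0.420 without the 2 farthest libraries, so this relation rests on them. For miR-29a-3p and miR-29c-3p r was 0.454 (adjusted permutation p = 0.172). The arms miR-29a-3p and miR-29a-5p had an r of -0.463 (adjusted permutation p = 0.172). The pooled p-values take no account of the code stems, by which miR-29b-3p differed. miR-29a-3p was also lower in AJ11 than in AJ without overlap when scaled by TMM, though not when scaled by library totals. Within the stems, r of miR-29a-3p and miR-29b-3p was 0.0793 in AJ, 0.804 in AJ1 and 0.489 in AJ11. For miR-29b-3p and miR-29c-3p r was 0.827, 0.638 and 0.163. Each stem has 5 libraries, too few for a test, so whether the pooled relations hold within a stem cannot be said. Since libraries share their scaling factor across members, r of miR-29a-3p and miR-29b-3p was 0.608 with upper quartile scaling and 0.861 with library totals, and for miR-29a-3p and miR-29c-3p it was 0.298 and 0.816.

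Among the 345 tested miRNAs outside the family, those whose log2 CPM was most like miR-29a-3p over the 15 libraries were miR-221-3p (r = 0.866), miR-15a-5p (0.849), miR-22-5p (0.793), miR-15b-3p (0.788) and miR-141-3p (0.785). For miR-29a-5p they were miR-378b (0.894), miR-219a-1-3p (0.891), miR-16-1-3p (0.808), miR-34c-5p (0.760) and miR-7a-5p (0.707), the last of which is on the islet list. The miRNAs of a library share its depth and scaling factor, and the lists are a description of likeness only.

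Other miRNAs linked to fibrosis were read in the same comparisons: miR-21a-5p, miR-192-5p, miR-199a-5p, miR-214-3p, miR-133a-3p, miR-30c-5p, miR-200b-3p and miR-26a-5p. In edgeR 0 of these 8 passed in either direction in any of the 6 pairwise comparisons or in the F test, against the backgrounds given above. The most abundant was miR-200b-3p, a regulator of epithelial identity, at 36139 ± 3931 CPM in control (SD, n = 3). With TLC-S it was at 41953 ± 13586 CPM at 62.5 uM and 31648 ± 4791 CPM at 250 uM, and both doses overlapped control. miR-21a-5p, the guide arm of a hairpin induced in many injured tissues, was at 20109 ± 2816 CPM in control and 19933 ± 5004 CPM with caerulein at 100 nM. miR-26a-5p was at 17435 ± 10051 CPM in control and 10509 ± 4032 CPM with TLC-S at 62.5 uM, a log2 difference of -0.73 (SE 0.33, adjusted p = 0.648, edgeR), and the groups overlapped. Of the others on the list, miR-133a-3p and miR-30c-5p are named after their values were seen. miR-133a-3p, a muscle miRNA, was at 1.47 ± 0.97 CPM in control and 5.94 ± 1.61 CPM with TLC-S at 62.5 uM (SD, n = 3), with a log2 difference of 1.99 (SE 0.82, unadjusted p = 0.0221, adjusted p = 0.533, edgeR). These groups did not overlap, as was so, in the same direction, for 6.27% of miRNAs. At 250 uM it was at 8.05 ± 8.49 CPM and overlapped control, with a difference of 2.40 (SE 0.81, unadjusted p = 0.00678, adjusted p = 0.999, edgeR). miR-30c-5p was at 1133 ± 73.8 CPM with TLC-S at 62.5 uM against 1467 ± 239 in control, a difference of -0.37 (SE 0.23, adjusted p = 0.794, edgeR). At that dose it lay below control without overlap, as did 5.98% of miRNAs. At 250 uM it was at 1625 ± 419 CPM and overlapped control, with a difference of 0.15 (SE 0.23), in the other direction.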

How the data were processed

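Small RNA libraries were made from mirVana total RNA and sequenced on an Illumina machine, per the labels' protocols. The tools were cutadapt and Bowtie, with GRCm38 and mm10, per the submitters' processing notes. Tool versions and the counting method were not given in the sources used here. In the authors' mature table, values are estimated counts (expected counts) rounded to whole numbers, within 0.5 of the sum over their precursor rows, 74.0% of whose values above 0 were whole within 1e-06. The deposited RPM table differed from the precursor table scaled to the same total by up to 0.712 RPM and served for alternatives only.

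Groups came from the sample titles. One model of 5 group means over 15 libraries was fitted in edgeR 4.0.16 (R 4.3.3): TMM scaling, a low-count filter by filterByExpr with 10 counts and a total of 15 as minimums, and the quasi-likelihood test. The 351 miRNAs tested held at least 99.968% of the counts of each library, and p-values were adjusted over them by Benjamini-Hochberg (threshold 0.05). For caerulein 100 nM and control the half-width of the 95% interval of a log2 difference had a median of 0.73. Correlations used log2(CPM + 1) with 100000 resamples in scipy 1.17.1. No pair of replicates agreed within sampling noise: chi-square over its degrees of freedom was 54.9 to 1657, so each library counted once. The code was tested on simulated counts.

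The members, the lists of marker and fibrosis-linked miRNAs and the tests were chosen with earlier results of these data known. The text names the members, the other arms of their hairpins, the 5 miRNAs most correlated with miR-29a-3p and with miR-29a-5p, and called or the 3 most abundant fibrosis-linked miRNAs. Alternatives were RLE, upper quartile and total scaling, other filters, robust dispersion, removal of the 3 most abundant miRNAs, the highest precursor row, limma 3.58.1 on log2(RPM + 1) and log2(RPM + 10), DESeq2 1.42.0, the 2 groups alone, a replicate block and leaving out each library. Library totals shifted the median difference of all miRNAs by -0.24 for caerulein 100 pM against control and by 0.29 between the caerulein doses, and other scalings by less than 0.1 in each comparison.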

Additional observations from a re-analysis of the deposited data

How the results depend on the processing

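No member was called under any alternative or left-out library, and the lowest adjusted p of any was 0.620; of 828 alternative values of the 30 member differences, 763 kept their direction. Those outside left-out libraries that changed sign were small. For miR-29c-3p with caerulein 100 pM against control (0.02), the log2 difference was -0.0148 with RLE, -0.2329 with library totals, -0.0216 without a filter, -0.0393 with a mean CPM of at least 10, -0.0155 without the 3 most abundant miRNAs, -0.2162 and -0.2143 with limma at pseudocounts of 1 and 10, -0.0147 with DESeq2 and -0.0578 with the 2 groups alone. For TLC-S 62.5 uM against control it was -0.0005 with a mean CPM of at least 10. For miR-29b-3p between the TLC-S doses (0.0004), it was -0.0109 with RLE, -0.0252 with library totals, -0.0106 with the highest precursor row, -0.1061 and -0.1025 with limma, -0.0100 with DESeq2 and -0.0009 with the 2 groups alone; for TLC-S 62.5 uM against control limma gave 0.0363 and 0.0341. For miR-29a-3p between the TLC-S doses it was 0.0178 without the 3 most abundant miRNAs. For miR-29a-5p with TLC-S 250 uM against control limma gave -0.2351 and -0.0230. The cause was not tested.

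Over all miRNAs, the 2 calls of TLC-S 62.5 uM against control became 1 with library totals, 5 without a filter, 0 and 1 with limma, 4 with DESeq2 and 0 with the 2 groups alone. The 4 calls between the TLC-S doses became 2 with RLE, upper quartile, the highest precursor row, the 3 most abundant miRNAs removed or limma at a pseudocount of 10, and 1 with a mean CPM of at least 10. The 3 calls of the F test became 10 without a filter, 1 with a mean CPM of at least 10 and 7 with DESeq2, which also made 1 call for caerulein 100 nM.

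Leaving out each library gave 1 to 3 calls for TLC-S 62.5 uM against control, 1 to 4 between the TLC-S doses and 1 to 4 in the F test, and 0 elsewhere. The miR-29a arm ratio then differed from control by -1.2105 to -0.7605 with caerulein 100 pM, -1.8875 to -1.0927 with 100 nM, -0.6621 to 0.7849 with TLC-S 62.5 uM and -0.5563 to 0.9895 with 250 uM; without control replicate 1 the difference for 62.5 uM was -0.0577. miR-29a-5p differed from control by 1.28 to 1.81 with caerulein 100 nM and by 0.66 to 1.09 with 100 pM. miR-29c-3p differed from control by 0.204 to 0.5665 with caerulein 100 nM, and miR-29b-3p between the caerulein doses by 0.0044 to 0.9149. Ranges that crossed 0 were, for miR-29a-3p, -0.0432 to 0.1066 (caerulein 100 nM against control), -0.1525 to 0.0111 (100 pM), -0.0042 to 0.1649 (TLC-S 250 uM) and -0.1529 to 0.0203 (TLC-S doses). For miR-29a-5p they were -0.2883 to 0.5353 (TLC-S 250 uM), -0.3504 to 0.8858 (62.5 uM) and -0.791 to 0.4326 (TLC-S doses). For miR-29b-3p they were -0.3006 to 0.5514 (caerulein 100 nM), -0.3046 to 0.1749 (TLC-S 250 uM), -0.2511 to 0.1707 (62.5 uM) and -0.1908 to 0.2437 (TLC-S doses). For miR-29b-2-5p they were -0.0859 to 0.7628 (TLC-S 250 uM) and -1.0351 to 0.2857 (62.5 uM), and for miR-29c-3p -0.1401 to 0.1623 (caerulein 100 pM), -0.1865 to 0.1881 (TLC-S 62.5 uM) and -0.0155 to 0.3535 (TLC-S doses).

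The replicate numbers follow the code stems of the titles, whose meaning the labels do not give, and they were not taken as pairing the samples. Same-numbered libraries correlated in their deviations from -0.125 to 0.398, over 0.1 in 8 of 18 pairs, and 11 of 15 libraries had their best match of another group in their own number. With the replicate block 0 members were called, the calls over all miRNAs became 5 for TLC-S 62.5 uM against control and 6 in the F test, the difference of miR-29a-5p for TLC-S 250 uM against control was -0.1462, and that of miR-29b-3p between the TLC-S doses was -0.0322.

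Reads limit the 5p arms most: miR-29a-5p and miR-29b-2-5p had as few as 1 and 2 counts in a library, whereas miR-29a-3p had at least 4387.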

Other observations

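The model with the code stem as a term was chosen after the values of miR-29b-3p had been seen, so it describes these libraries only. In edgeR the stem term was called for 23 of 351 miRNAs, and miR-29b-3p ranked 2 by p. Its log2 difference of stem AJ11 from stem AJ was -0.96 (SE 0.18, 95% interval -1.34 to -0.58), that of AJ1 from AJ was -0.67, and the term over both stems had an adjusted p of 0.0081 (edgeR). The AJ11 library was lower than the AJ library in 5 of 5 groups, and the share of miRNAs with this pattern was not counted. For the stem term the 4 other members had adjusted p-values of 0.381 to 0.503 (edgeR). miR-29b-3p was called in 24 of 26 alternatives, with AJ11 minus AJ from -1.17 to -0.75 and adjusted p-values from 1.82e-04 to 0.0740. It was not called without replicate 1 of caerulein 100 pM (-0.92, adjusted p = 0.0514, where 1 miRNA was called) or without replicate 1 of caerulein 100 nM (-0.75, adjusted p = 0.0740, where 8 were). Over the left-out libraries the calls ran from 1 to 54. Whether the stems mark a preparation, a day or a sequencing run is not stated in the labels.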
